A study of Mus musculus with 48 samples.

Results

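Among the 24 Ba/F3 clones of the series, 6 carry a point mutation in the small ribosomal subunit gene Rps15, and these 6 were chosen and divided by their own Rps15 RNA: 3 clones lay below 1200 CPM and 3 lay above it, where CPM stands for a gene's counts after division by the size of its library. The low clones were P131S #24, H137Y #6 and H137Y #2, and the high clones were P131S #63, P131S #20 and H137Y #16, so each mutation occurred on both sides. Every clone gave 1 RNA-seq and 1 ribosome footprint library, which makes 12 of the 48 libraries of the series. Ba/F3 is described as a mouse pro-B line that depends on interleukin 3, and the clones were made by CRISPR-Cas9 editing. The labels write the Rps15 mutations as P131S/P131S and H137Y/H137Y, that is on both alleles, although the RNA-seq titles of the P131S clones name that mutation once. The 3 WT clones used beside them carry none of the edits. All clones, WT included, grew with 10% serum and 1 ng/ml interleukin 3 and received 0.1 mg/ml cycloheximide for 1 min before lysis. Each replicate is a clonal line, so the spread described here is the spread between clones.

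Rps15 is a protein of the small (40S) ribosomal subunit whose C-terminal tail reaches towards the decoding site, where transfer RNAs meet the messenger RNA. Both mutations lie in that tail, which is also where Rps15 mutations of chronic lymphocytic leukaemia cluster. Cells need each ribosomal protein in step with the others, and Rps15 is further needed for late maturation and nuclear export of the small subunit precursor.

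Since Rps15 RNA chose the groups, its values are a description and carry no test. On plain library totals the Rps15 RNA level was 750 CPM in H137Y #6, 866 in H137Y #2 and 868 in P131S #24. It was 1738 CPM in P131S #63, 1767 in P131S #20 and 1814 in H137Y #16. The clones nearest the boundary were thus P131S #24 below it and P131S #63 above it, with no clone in between. The WT clones held 1504 to 1534 CPM and the other 5 genotypes 1458 to 2017, so the low clones were the lowest of the series while the high clones lay within the range of the other genotypes. After scaling by trimmed means of M values (TMM), used for all CPM values from here on, the low clones averaged 866 ± 45.2 CPM (SD, n = 3), or 60.0% of the WT mean, and the high clones 1863 ± 62.6 CPM, or 129% of it.

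Rps15 footprints followed the same division. They amounted to 243 CPM in P131S #24, 258 in H137Y #2 and 262 in H137Y #6, against 425 in P131S #63, 459 in H137Y #16 and 693 in P131S #20. The low mean was 52.5% of the WT mean and the high mean 109% of it. Footprints per RNA (the ratio of the CPM values) ranged from 0.268 to 0.320 in the low clones and from 0.233 to 0.358 in the high clones, and the groups overlapped.

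The library totals of the groups overlapped. RNA-seq totals were 26200445 to 30672399 estimated counts in the low clones and 26532879 to 34760822 in the high clones, and footprint totals were 26663087 to 61149784 and 45676855 to 55389029. The labelled cell type was checked against markers. Of 20 B cell markers, 17 were under 1 CPM in every low clone, 17 in every high clone and 17 in every WT clone. Their summed level was 158 to 181 CPM in the low, 171 to 187 in the high and 149 to 167 in the WT clones. Pax5, which defines the B lineage, stayed at or below 0.119 CPM, while Bank1 reached 19.2 to 35.1 CPM. Tcf3, also on the list, averaged 133.5 CPM in the low and 147 in the high clones. Thus 17 of the 20 listed markers did not bear out the pro-B name, in WT as in the mutant clones. The interleukin 3 receptor subunit genes were present, with 27.4 to 35.0 CPM of Il3ra and 774 to 1719 CPM of Csf2rb over the 6 clones.

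Apart from Rps15, the gene with the lowest p between low and high clones in both RNA and footprints was Apc2 (ENSMUSG00000020135), which follows Rps15 (ENSMUSG00000063457) on chromosome 10. Apc2 encodes a relative of the tumour suppressor APC, a scaffold of the complex that degrades beta-catenin, and is best known from neurons. In RefSeq on GRCm38.p6, Rps15 spans chr10:80292431-80294114 and Apc2 chr10:80295956-80318257, both on the plus strand, with 1841 bases between them. RefSeq also lists the noncoding gene Gm30682 at chr10:80294135-80298327, over that gap and the first part of Apc2. It was not analysed here, and reads of the shared part cannot be told apart, since the sources used here do not say whether strand was used in counting. The stretches upstream of both start sites are printed because the adjacent genes differed in opposite directions in the same clones. They are the 250 bases before the start site, from RefSeq on GRCm38.p6, plus strand, 5′ to 3′, with motif matches in capitals.
Rps15, chr10:80292181-80292430: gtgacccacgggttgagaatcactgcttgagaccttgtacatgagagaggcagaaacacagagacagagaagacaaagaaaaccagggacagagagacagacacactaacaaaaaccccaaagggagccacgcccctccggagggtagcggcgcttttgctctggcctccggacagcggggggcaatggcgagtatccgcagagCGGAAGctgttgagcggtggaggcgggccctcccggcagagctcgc
Apc2 (the first of its 4 listed start sites), chr10:80295706-80295955: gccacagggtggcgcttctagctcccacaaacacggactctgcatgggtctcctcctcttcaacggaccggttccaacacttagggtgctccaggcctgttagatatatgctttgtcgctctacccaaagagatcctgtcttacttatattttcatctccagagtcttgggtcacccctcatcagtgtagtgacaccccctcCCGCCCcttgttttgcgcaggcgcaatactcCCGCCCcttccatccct
The motifs searched on both strands were TATAAA (the TATA box), CCAAT (read by NF-Y), GGGCGG (read by Sp1 and its relatives) and CGGAAG (read by ETS factors), and no match overlapped another. The Rps15 stretch held 1 CGGAAG, of which 13.6% of the 32851 listed stretches of this length hold at least 1, and the Apc2 stretch held 2 GGGCGG on the minus strand; 32.7% of stretches hold at least 1. TATAAA (12.4% of stretches) and CCAAT (33.8%) were in neither.

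Apc2 RNA was 225 CPM in H137Y #2, 175 in H137Y #6 and 22.1 in P131S #24. In the high clones it was 0.368 CPM in P131S #20, 0.290 in H137Y #16 and 0.158 in P131S #63, which are 4 to 11 estimated counts a library. The low clones therefore all lay above the high clones, and both H137Y clones of the low group were far above P131S #24. In the 18 clones of the other genotypes, WT included, Apc2 had 0 to 8 RNA counts (at most 0.205 CPM), so the 3 low clones were also alone above 1 CPM in the series. Apc2 footprints were 202 CPM in H137Y #6, 132 in H137Y #2 and 9.76 in P131S #24, against 0.244 in H137Y #16, 0.0200 in P131S #63 and 0 in P131S #20, and at most 0.420 CPM in the 18 others. The plot of both genes in every clone shows the pair.

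**Figure D1:**
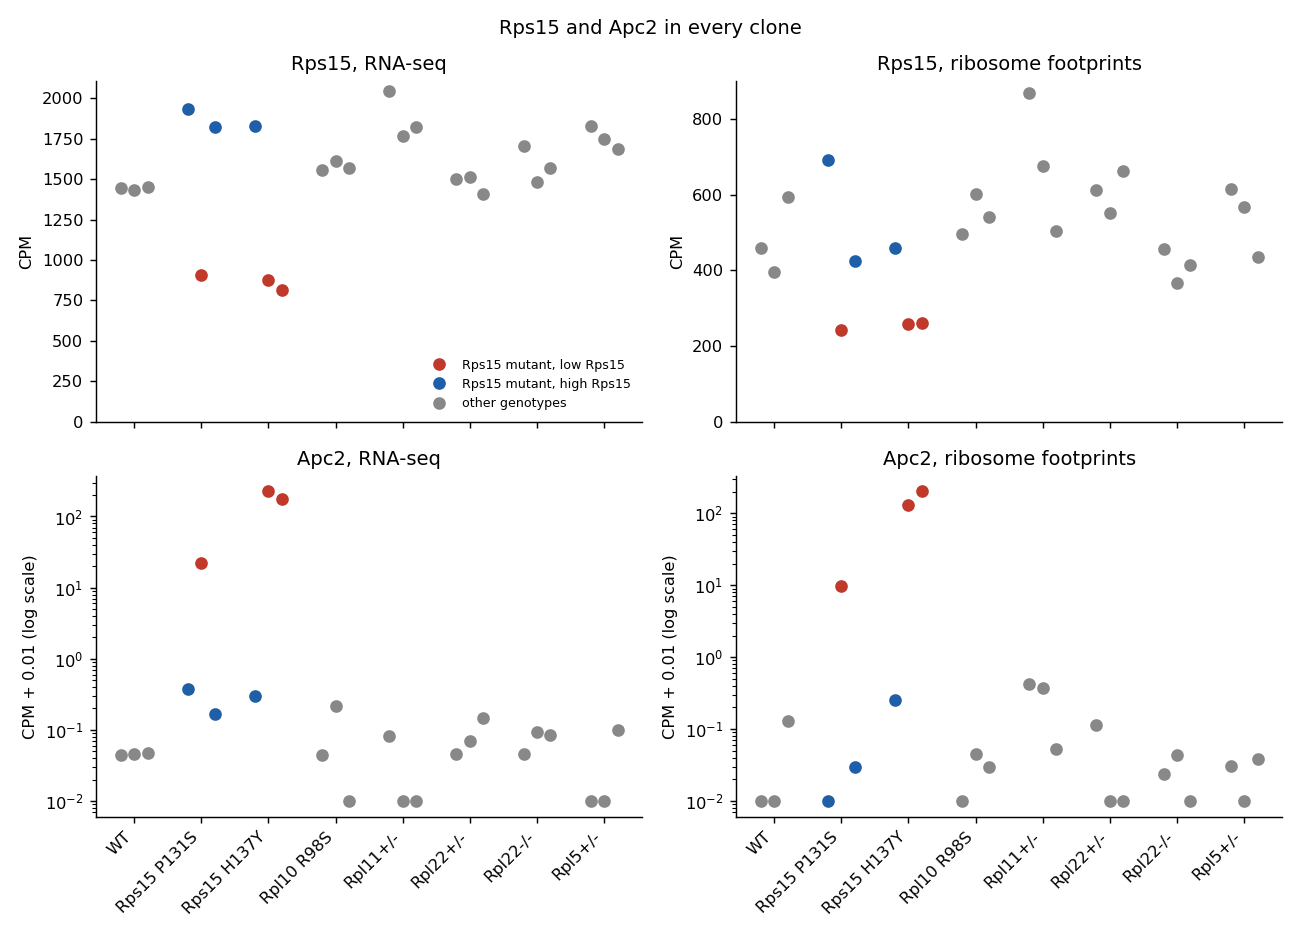
Rps15 (top, CPM) and Apc2 (bottom, CPM plus 0.01 on a log axis) in the RNA-seq (left) and footprint (right) libraries, 1 point a clone, by genotype; red points are the low clones, blue points the high clones and grey points clones of other genotypes. The 3 clones with the least Rps15 RNA (817 to 907 CPM) are the 3 with Apc2 RNA from 22.1 to 225 CPM.

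In the fit to the 6 libraries with the mutation as covariate, edgeR's quasi-likelihood test gave Apc2 a log2 difference of 9.42 ± 0.40 (SE) in footprints with a Benjamini-Hochberg adjusted p of 0.00224. Apc2 reached the minimum of 10 counts in 3 libraries only through the low clones, and a gene that passes the filter in this way has to differ. With no filter on low counts its adjusted p in edgeR was 7.14e-16 in footprints and 1 in RNA. The RNA difference was 8.02 ± 0.69, with an unadjusted p of 7.52e-05 and an adjusted p of 0.454, which does not pass the threshold of 0.05. With so few counts in the high clones, these fitted differences depend on the prior count and are not exact folds. The RNA call varied with the tool and with the libraries in the fit. The adjusted p was 0.00517 with the 3 WT libraries added and 7.22e-09 with all 24, and over the same 6 libraries it was 1.31e-15 in DESeq2 and 0.0896 in limma voom. In edgeR it was 0.00144 without H137Y #16, where the difference was 6.34. The RNA difference did not pass in edgeR without H137Y #2 (adjusted p 0.998), without P131S #20 (0.0966) or without P131S #63. Nor did it pass with no mutation term or with log2 Rps15 CPM in place of the groups (0.999 in each). Without H137Y #6 Apc2 RNA fell below the filter and was not tested. Without P131S #24 the RNA difference was 9.39 with an adjusted p of 0.000721 and the footprint difference 9.39 with an adjusted p of 0.107; limma voom gave footprints an adjusted p of 0.545 and a fit with no mutation term 0.946. In the same edgeR test the difference was 3.06 log2 units smaller in P131S than in H137Y in RNA (unadjusted p 0.00145, adjusted p 1) and 0.19 larger in footprints (adjusted p 1), where limma voom turned the sign (-0.16) and the high P131S clones held 0 and 1 counts. Over all low and high clones footprints per RNA of Apc2 differed by a log2 value of 1.44 ± 1.03 (edgeR unadjusted p 0.198).

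No other tested gene around Rps15 passed. The 10 tested genes on either side reached from Sbno2 to Klf16, and for the 19 of them other than Apc2 the RNA difference ran from -0.28 (2310011J03Rik, the gene after Apc2) to 0.13 (Fam174c), with a median of -0.09. In footprints it ran from -0.26 (Klf16) to 1.21 (Mex3d), also with a median of -0.09. None of the 19 had an unadjusted p under 0.05 in RNA or footprints in edgeR, and in none were the 3 low clones apart from the 3 high clones at either level. Dazap1, the tested gene before Rps15, had a log2 difference of -0.12. Over 20 chromosomes the median RNA difference ran from -0.02 to 0.01. The beta-catenin pathway genes Apc, Ctnnb1 and Axin1 were chosen after their values were seen. In RNA, Apc differed by -0.06 and Ctnnb1, which encodes beta-catenin, by 0.01, with 278 to 320 CPM in the low and 291 to 311 in the high clones. Axin1, another scaffold of that complex, ranged from 74.9 to 83.1 CPM in the low and 76.7 to 95.8 in the high clones.

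**Figure D2:**
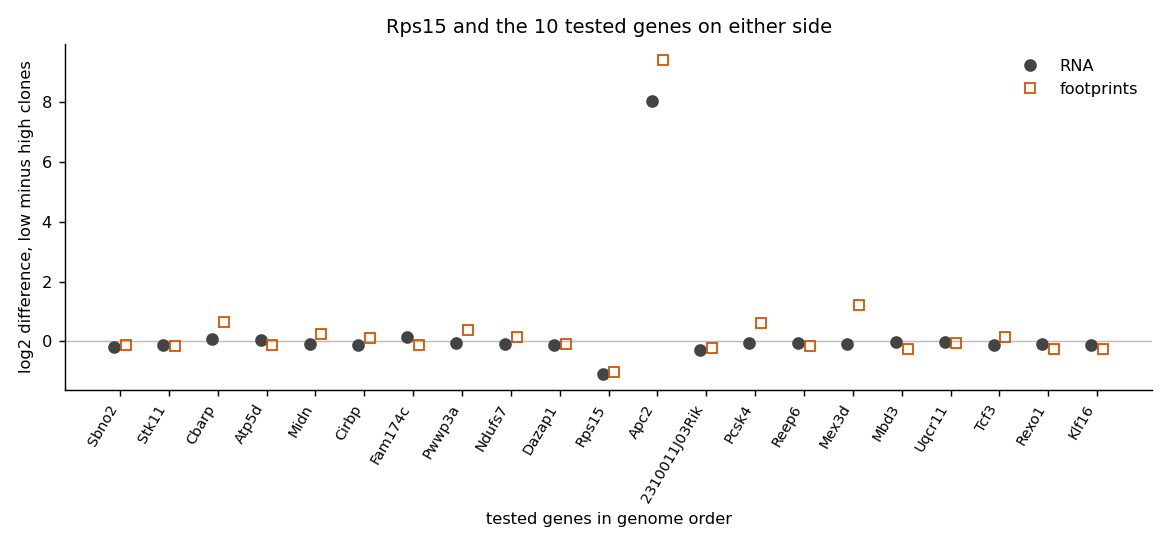
Log2 difference between low and high clones (vertical axis) for Rps15 and the 10 tested genes on either side in genome order, in RNA (filled circles) and footprints (open squares). Apc2 stands at 8.02 and 9.42 beside Rps15 below 0, and the other 19 genes lie between -0.28 and 0.13 in RNA and between -0.26 and 1.21 in footprints.

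Apart from this pair, few genes separated low from high clones. In RNA edgeR called 0 of 12068 other genes at an adjusted p of 0.05, which is 0% (unadjusted p under 0.05 in 71 genes, with 3 calls in DESeq2 and 0 in limma voom). In footprints it called 1 of 14007, Apc2, which is 0.00714% (unadjusted p under 0.05 in 480, with 42 calls in DESeq2 and 0 in limma voom). Apc2 passed the filter only through the low clones, so its call was not independent of the filter and is given as a description. For translational efficiency, the change in footprints beyond that in RNA, edgeR called 0 of 11160, which is 0% (unadjusted p under 0.05 in 209, with 7 calls in DESeq2 and 0 in limma voom). The 3 low clones all lay above the 3 high clones in 2.41% of the genes in RNA and 4.99% in footprints, and all below in 1.57% and 5.08%. The test of whether the difference between levels depended on the mutation called 0 genes in RNA and 0 in footprints in edgeR (unadjusted p under 0.05 in 113 and 406), and 0 at either level in limma voom.

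The clones nearest to each other in RNA belonged to opposite groups. The median absolute log2 difference over 9384 genes of at least 5 CPM was 0.0927 between P131S #24 (low) and P131S #63 (high), and 0.0932 between H137Y #2 (low) and H137Y #16 (high). The other 13 pairs of the 6 clones lay between 0.177 and 0.309. The pairs of the same mutation and the same level were at 0.191 and 0.220, farther apart than either of these 2. In footprints P131S #24 and #63 were again the nearest pair, at 0.190, and H137Y #2 and #16 followed at 0.214.

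**Figure D3:**
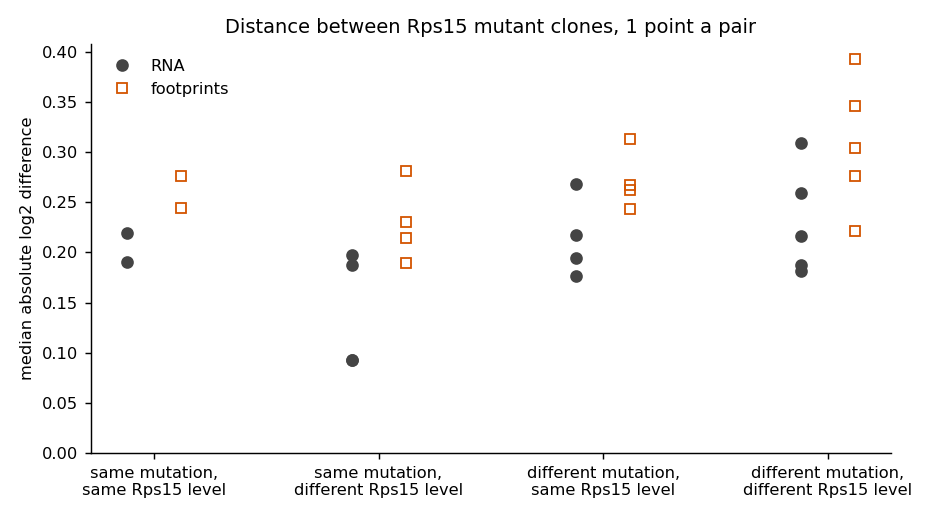
Median absolute log2 difference between 2 clones (vertical axis) for the 15 pairs of Rps15 mutant clones in RNA (filled circles, 9384 genes) and footprints (open squares, 8969 genes), by whether they share the mutation and the Rps15 level. The 2 lowest RNA values, 0.0927 and 0.0932, overlie each other among pairs of the same mutation and different level.

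These 2 pairs, picked for being nearest, were compared gene by gene. In RNA 133 of 9729 genes differed by more than 2-fold between P131S #24 and #63 and 104 between H137Y #2 and #16, of which 40 were common to both pairs, 30.1% of the first and 38.5% of the second. Of these, 6 were higher and 13 lower in the low clone of both pairs, and 21 went opposite ways. In footprints 352 and 412 of 9531 genes differed by more than 2-fold, with 117 in common (33.2% and 28.4%), of which 17 were higher and 47 lower in the low clone of both pairs and 53 went opposite ways. These are differences between single libraries and carry no test. Several of the 13, chosen after their values were seen, encode neutrophil granule proteins: Ngp was 350 CPM in P131S #24 against 805 in P131S #63, and 123 in H137Y #2 against 303 in H137Y #16. Ltf (lactotransferrin) and Ctsg (cathepsin G) had the same order in both pairs. The remaining low clone went the other way, since Ngp was 1126 CPM in H137Y #6, the highest of the 6, and the remaining high clone P131S #20 was lowest at 71.6 CPM. Cxcr2, which encodes a neutrophil chemokine receptor, was instead among the 6 genes higher in the low clone of both pairs. Its log2 difference in RNA was 1.7 in the P131S pair and 1.68 in the H137Y pair.

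Granulocyte and monocyte markers as a list therefore varied among the clones without following Rps15. Their summed RNA level ran from 1207 to 6668 CPM in the low clones and from 1128 to 6618 in the high clones, against 85.6 to 306 in WT. Of the 35 markers measured, 4 were at 0 in the low clones and 4 in the high clones, and Elane, a defining gene of early granulocytes, was at or below 0.201 CPM in all 6 clones. In these bulk samples more cells of a kind and more RNA per cell cannot be told apart. Summed erythroid markers were 528 to 952 CPM in the low and 648 to 1026 in the high clones. Summed mast cell and basophil markers were 1221 to 2348 CPM in the low and 971 to 3468 in the high clones, and T and natural killer cell markers at most 1.24 and 13.7. The part of these differences between clones in the results here was not tested.

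The genes with the lowest p-values after Apc2 are named here although they did not pass. Fam20a encodes a pseudokinase that assists the secretory kinase Fam20c. Its RNA was 8.31, 12.2 and 21.2 CPM in H137Y #6, H137Y #2 and P131S #24, and 4.35 to 7.59 in the high clones, while WT held 25.5 to 35.3. Low clones were above high clones without overlap and below WT. The log2 difference between low and high was 1.4 ± 0.22 in RNA and 1.35 ± 0.23 in footprints, at edgeR adjusted p-values of 1.00 and 0.999, whereas DESeq2 gave 0.000378 and 0.00105. The edgeR result depended on the filter, since with no filter on low counts edgeR gave 0.000613 and 0.0203. Against WT in edgeR the RNA difference was -1.05 in the low clones (adjusted p 0.00555) and -2.45 in the high clones (adjusted p 0.000267), 2 comparisons that share the WT libraries.

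The other RNA differences of lowest p were smaller. Dnajc6 (auxilin, which uncoats clathrin vesicles) was higher in the low clones by 0.40, Srcin1 (an inhibitor of Src) by 0.93 and Retsat (retinol saturase) by 0.51. Lower values were found for Ank1 (ankyrin of the membrane skeleton, -0.76), Wdr62 (a spindle pole protein, -0.35), Kmt2b (a histone methyltransferase, -0.36), Mphosph9 (-0.42) and Entr1 (-0.35). All had edgeR adjusted p-values of 1.00. Ank1 was 40.5 CPM in H137Y #16 against 17.6 and 20.1 in the low H137Y clones, and at most 12.3 in the high P131S clones against 9.41 in P131S #24, so low lay under high within each mutation while the groups as a whole overlapped.

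In footprints, further genes of low p lay on both sides. Ddit4, an inhibitor of mTORC1 that is induced by stress, had 31.1 to 42.9 CPM of footprints in the low and 18.9 to 22.2 in the high clones, against 87.2 to 128 in WT. Its log2 difference was 0.94 ± 0.18 in footprints (edgeR adjusted p 0.999) and 0.35 in RNA. Slc37a4, the glucose-6-phosphate transporter, was higher by 0.74. On the lower side Myl12b (ENSMUSG00000034868), a myosin regulatory light chain, had 21.8, 24.4 and 48.5 CPM of footprints in the low clones and 57.7, 245 and 245 in the high clones, at 178 to 227 CPM of RNA in all 6 and 15.2 to 20.7 CPM of footprints in WT. Hnrnpa3 (an RNA-binding protein, -0.80), Tubb2a (beta-tubulin, -0.81), H2ac4 (-1.07) and H4c2 (-0.62) followed, all at an edgeR adjusted p of 0.999. With no filter on low counts edgeR gave adjusted p-values of 0.000187 for Myl12b and 0.00215 for H2ac4, and at least 0.0792 for Hnrnpa3, Tubb2a and H4c2. These 5 have near-identical relatives or processed copies in the genome, and short footprints shared with them may be counted to either, so their values are uncertain. Another entry also carries the symbol Myl12b, with more counts over the series, and its values are not reported here.

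**Figure D4:**
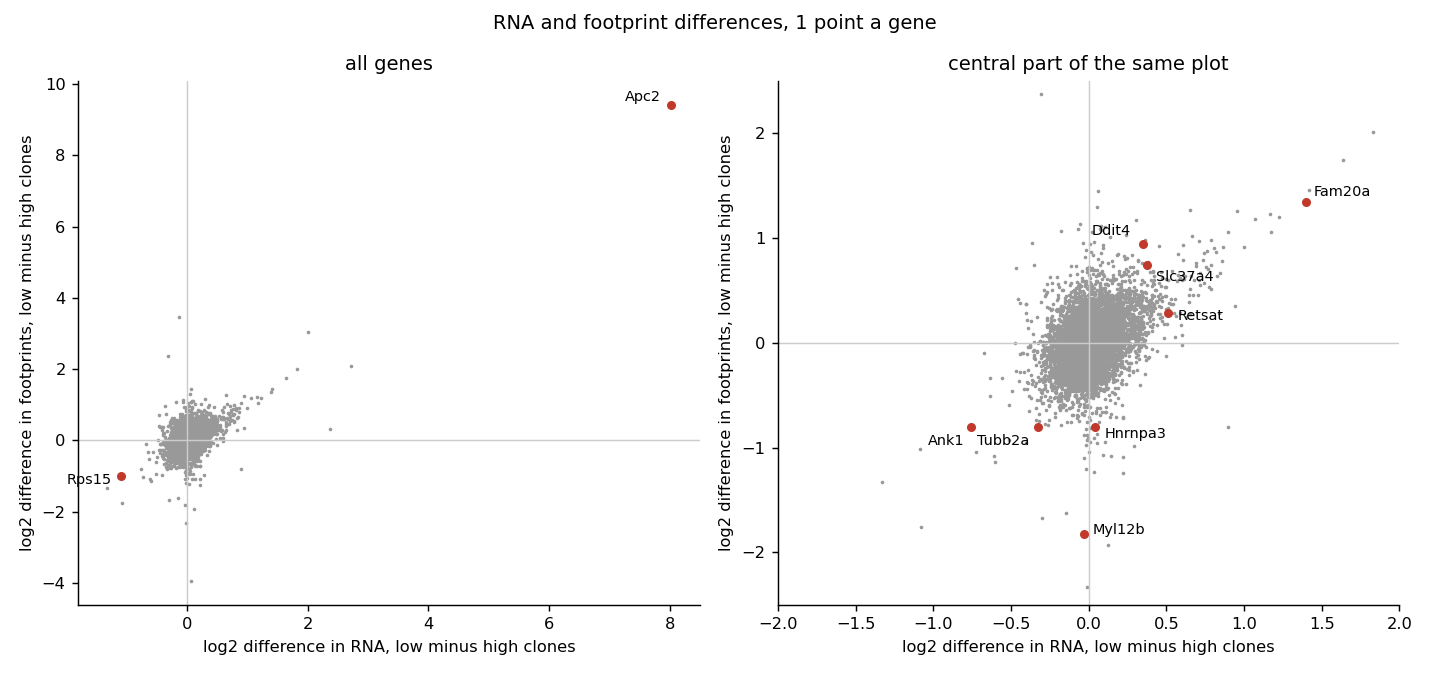
Log2 difference between low and high clones in RNA (horizontal axis) and footprints (vertical axis) for Rps15 and 8273 other genes of at least 5 CPM in both assays, with the central part enlarged on the right. Apc2 stands alone at the upper right, and Myl12b (the entry ENSMUSG00000034868) and Hnrnpa3 lie near 0 in RNA and below 0 in footprints.

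RNA and footprint differences went together in part. Over the 8273 genes of at least 5 CPM in both assays other than Rps15, Pearson's r across genes was 0.522 and Spearman's rho 0.350, as a description of libraries made from the same clones. Of 11160 genes tested in both, low clones were apart from high clones on the higher side in 269 in RNA and 503 in footprints, with 45 in common (16.7% and 8.95%), and on the lower side in 172 and 590, with 20 in common (11.6% and 3.39%). For translational efficiency the lowest p-values belonged to Hira (a histone chaperone, 1.19), Lrfn4 (1.33), Galnt11 (1.34), Kmt2d (0.70) and Aktip (1.86) on the higher side, and to Myl12b (-1.79), Tmem160 (-0.95), Hnrnpa3 (-0.84), Rbpj (-1.26) and the noncoding Oip5os1 (-1.84) on the lower side, all at an edgeR adjusted p of 1.

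The gene lists, like the members, were chosen with earlier results known, and in edgeR no member of any of the 21 lists passed between low and high clones in RNA, footprints or efficiency. The other small subunit ribosomal protein genes, which Rps15 joins in the 40S subunit, differed little: the median log2 difference of 33 genes was -0.05 in RNA and -0.02 in footprints, beside 0.00 over all genes at both levels, and the low clones lay below the high clones in 1 of 33 in RNA (Rps9, -0.06), beside 1.57% of all genes, and 0 of 33 in footprints. Rps20 had the lowest p in RNA at a log2 difference of -0.17. Of 49 large subunit genes the median was -0.05 in RNA and -0.07 in footprints. Below without overlap were 0 of 49 in RNA and 5 of 49 in footprints, beside 1.57% and 5.08% of all genes. The 5 were Rpl11 (-0.23), Rpl12 (-0.33), Rpl21 (-1.01), Rpl23 (-0.55) and Rpl27a (-0.25). Small subunit assembly factors had medians of -0.08 and -0.13 over 67 genes, with 0 of 67 below without overlap in RNA and 5 of 67 in footprints (Bysl, Ddx52, Dhx37, Fbl and Imp4), beside 5.08% of all genes in footprints. By clone, P131S #20 alone was at 0.29 in RNA and the other 5 clones lay between -0.10 and -0.02. Without P131S #20 the assembly factor medians were 0.02 in RNA and -0.04 in footprints, and without P131S #24 they were 0.05 and -0.006. Though small, the RNA differences were mostly negative, in 30 of 33 small subunit genes, 42 of 49 large subunit genes and 54 of 67 assembly factors. In footprints 21 of 33, 33 of 49 and 56 of 67 were negative. By clone in RNA, the small subunit genes were lowest in H137Y #6 (-0.13) and highest in H137Y #2 (0.11), both low clones.

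Cholesterol synthesis genes were mostly higher in the low clones, by small amounts: 23 of 25 had a positive RNA difference, with a median of 0.14, and 19 of 25 a positive footprint difference, with a median of 0.13. In RNA 3 of 25, Acat2, Fdft1 and Lss, were above without overlap, beside 2.41% of all genes. Fdft1, which makes squalene, was 42.6 to 51.3 CPM in the low and 28.8 to 39.5 in the high clones. By clone, the median deviation of the list from the mean of the 6 was lowest in P131S #20 (-0.21 in RNA, -0.29 in footprints), and P131S #63, also a high clone, was at 0.10 in RNA. DNA replication and cell cycle genes were lower in 45 of 51 in RNA, with a median of -0.10, and without overlap in 2 of 51, the licensing factor Cdt1 (-0.25) and the polymerase subunit Pola2 (-0.17), beside 1.57% of all genes. In footprints the median was -0.13, and 5 of 51 were below without overlap (Mcm3, Mcm10, Ccna2, Ccnb1 and Plk1), beside 5.08% of all genes. P131S #20 stood at 0.22 in RNA while the other 5 clones lay between -0.08 and 0.00, and at 0.25 in footprints while they lay between -0.18 and 0.05. Without P131S #20 the RNA medians were 0.07 for cholesterol synthesis and -0.04 for DNA replication and cell cycle genes, and without P131S #24 the latter was -0.03.

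Replication-dependent histone genes had a median footprint difference of -0.15 over 55 genes, at an RNA median of 0.04 over 47. The low clones lay below the high clones without overlap in 13 of 55 in footprints and 1 of 47 in RNA, beside 5.08% and 1.57% of all genes. H2ac7 had 64.4 to 91.9 CPM of footprints in the low and 100 to 278 in the high clones. Without H137Y #16 the median footprint difference was 0.07, so its sign rested on that clone. By clone in footprints, the list stood at -0.33 in H137Y #2, 0.001 in H137Y #6 and 0.08 in P131S #24. Among the high clones it was at -0.06 in P131S #63, 0.15 in H137Y #16 and 0.29 in P131S #20, so the groups overlapped. Histone genes are near copies of one another and their messages end without a poly(A) tail, which the RNA-seq selected for, so their RNA values and the division of footprints among copies are uncertain.

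Among p53 targets 1 of 29 had an unadjusted p under 0.05 in RNA, the noncoding Trp53cor1 (0.95), and the median was 0.05. Interleukin 3 signalling genes had a median of 0.08 over 33, with Myc at 0.35 (unadjusted p 0.198), and ATF4 and stress response genes one of 0.02 over 29. Ribosome rescue factors (0.00 over 30), initiation and elongation factors (-0.03 over 50), mitochondrial ribosomal protein genes (-0.04 over 78), oxidative phosphorylation genes (-0.02 over 88), proteasome genes (0.01 over 39), aminoacyl-tRNA synthetase genes (0.00 over 39) and Zfp zinc finger genes (-0.06 over 308) were near 0 in RNA too. Of these 7 lists, only the Zfp genes held a member with an unadjusted p under 0.05 in RNA in edgeR (Zfp710, -0.26). Footprint medians were farther from 0 for p53 targets (0.14 over 29), interleukin 3 signalling genes (0.16 over 32) and initiation and elongation factors (-0.11 over 50). The other lists of this paragraph had footprint medians between -0.08 and 0.02. By clone in footprints, P131S #20 stood at 0.33 for initiation and elongation factors and at -0.32 for interleukin 3 signalling genes, the farthest from 0 of the 6 clones.

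**Figure D5:**
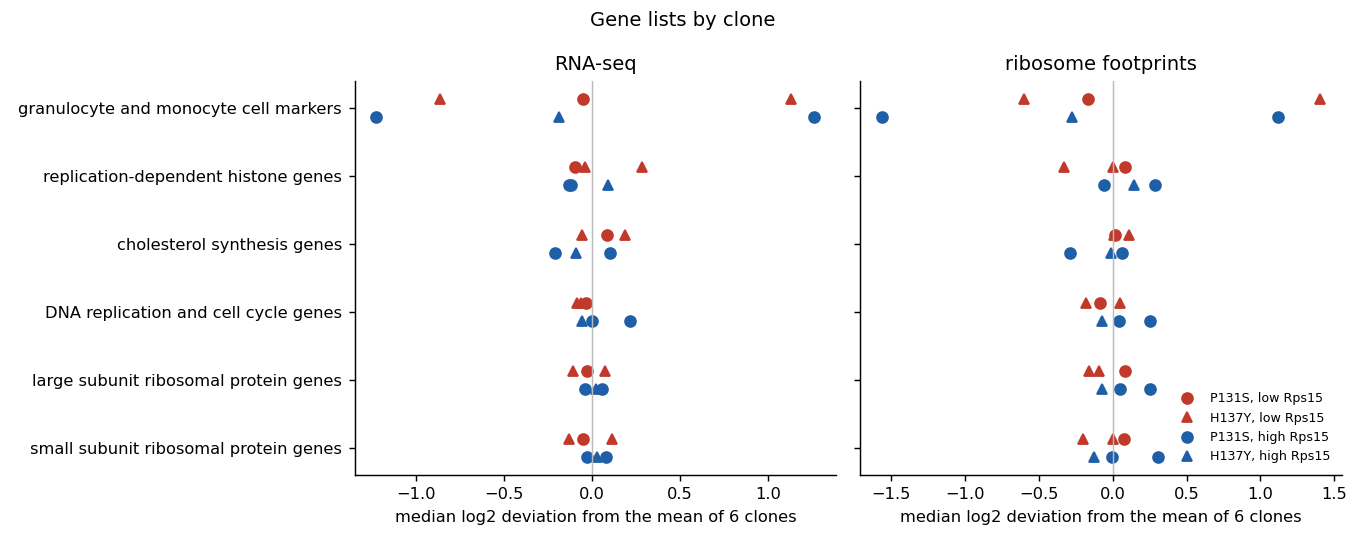
Median deviation of log2 CPM from the mean of the 6 clones (horizontal axis) for 6 gene lists (rows) in RNA (left) and footprints (right), 1 point a clone; red marks low clones, blue high clones, circles P131S and triangles H137Y. Granulocyte and monocyte markers spread from -1.22 to 1.26 in RNA with low and high clones mixed, and the other lists lie between -0.21 and 0.29 in RNA.

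Both groups differed from WT far more than from each other. In RNA edgeR called 2670 of 12307 genes (21.7%) in the low and 3837 (31.2%) in the high clones against WT, and in footprints 906 of 14770 (6.13%) and 1610 (10.9%). By direction in RNA, 1247 of the 12307 genes were higher and 1423 lower in the low clones, and 1872 higher and 1965 lower in the high clones. The 2 groups share the WT libraries and differ in makeup, since 2 of 3 low clones are H137Y and 2 of 3 high clones P131S. The counts depended on single clones. For the low clones they fell in RNA to 1113 without P131S #24 and to between 803 and 1041 without 1 of the WT clones. In footprints they fell to 93 without P131S #24, to 452 without H137Y #6 and to at most 196 without 1 of the WT clones. For the high clones they fell in RNA to 2140 without H137Y #16 and to between 1856 and 2115 without 1 of the WT clones. In footprints they fell to 326 without H137Y #16, to 837 without P131S #20 and to between 267 and 561 without 1 of the WT clones. ATF4 and stress response genes were lower than WT in 21 of 30 in RNA in the low clones and in 21 of 30 in the high clones, and higher in 0, with median log2 differences of -0.91 and -0.95. Small subunit ribosomal protein genes other than Rps15 were higher than WT in 13 of 33 (median 0.24) in the low and 21 of 33 (median 0.32) in the high clones. Cholesterol synthesis genes were higher in 10 of 25 in the low clones (median 0.27) and in 6 of 25, with 2 lower, in the high clones (median 0.06). Granulocyte and monocyte markers were higher in 10 of 25 and 14 of 25, beside the summed levels given above, whose part in the other differences from WT was not tested.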

How the data were processed

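RNA-seq (poly(A) selected) and ribosome footprints of 28 to 30 nucleotides came from the same 24 clones, and 1 deposited table held a column for each library. Its values were taken as estimated counts per gene: 35.5% of the values above 0 in the columns the authors deposited were not whole numbers. Per the submitters' processing notes, STAR 2.6.1d, Salmon 1.4.0, DESeq2 1.30 and GRCm38 were used. How reads that match several places were handled, and which annotation was counted, is not given in the sources used here. Columns were matched to clones by their names.

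The members and gene lists were chosen with earlier results of these data known. Counts were rounded and scaled by TMM. Genes were kept where 3 or more libraries reached the CPM that 10 counts make in a library of median size, with 15 or more counts in all, and tested with the quasi-likelihood test of edgeR 4.0.16 in R 4.3.3, with the mutation as covariate, over the 6 libraries of an assay (12, with an assay by level term, for translational efficiency; 9 for the comparisons with WT). Adjustment was by Benjamini-Hochberg over all genes tested, with a threshold of 0.05; Rps15 was fitted but left out of all counts of calls. The SE of a log2 difference was taken from the F statistic. DESeq2 1.42.0, limma 3.58.1 voom and the other alternatives are in the closing section. Genes were named by a rule: in each of RNA, footprints and efficiency, up to 10 that passed in each direction without overlap, at a mean CPM of at least 5, by size of change, filled up to 5 by lowest p where fewer passed, and up to 4 of each list, by size of change or else lowest p. Some genes that the rule names are not reported here. List members named because their groups did not overlap were chosen after their values were seen. The procedure was tested on simulated data. Positions and promoters are from RefSeq, which gave 39049 of 55487 genes a position. The P131S and H137Y clones carry numbers that also name their footprint libraries. Over 8275 genes, the deviations of RNA and footprint libraries of 1 clone from the mean of its mutation correlated at 0.364 to 0.699. Libraries of different clones of the same mutation correlated at -0.498 to 0.0387. Deviations from a mean of 3 clones sum to 0, which in part pulls these latter values below 0. The numbers were taken to pair the 2 assays because the values within a clone were all positive.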

Additional observations from a re-analysis of the deposited data

How the results depend on the processing

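Between low and high clones the number of genes called in RNA was 0 in the reported fit, 3 in DESeq2, 7 with no filter on low counts, 1 with the WT libraries added and 1 with all 24 libraries of the assay. In footprints it was 1 in the reported fit, 42 in DESeq2, 0 in limma voom, 9 with no filter, 0 with no mutation term and 2 with all 24 libraries. For translational efficiency it was 0 in the reported fit, 7 in DESeq2 and 1 with no filter. With each clone as a replicate block, which pairs its RNA and footprint library, it was again 0, with 371 genes at an unadjusted p under 0.05, and the block changed no other call. Leaving out each clone in turn gave 0 to 1 in RNA, 0 to 4 in footprints and 0 in efficiency. With all 24 libraries of the assay the low clones differed from WT in 4707 genes in RNA and 1619 in footprints, and the level by mutation term called 2 genes in RNA. Leaving out each clone in turn gave 803 to 3499 genes in RNA and 93 to 1065 in footprints for low clones against WT, and 1856 to 4946 and 267 to 1831 for high clones against WT. The difference in efficiency of Apc2, 1.44 in the reported fit, was -0.00898 without P131S #24 and 3.17 without H137Y #16; the cause was not tested. With 3 clones a group, the median SE of a log2 difference was 0.144 in RNA and 0.198 in footprints for genes of at least 5 CPM. Differences of several times that size, such as 1.4 for Fam20a in RNA, were not called in the reported fit. With no filter on low counts edgeR did call Fam20a, at an adjusted p of 0.000613 in RNA and 0.0203 in footprints.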
